A study of Arabidopsis thaliana with 4 samples.

Results

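The 10 genes described here belong to the xyloglucan endotransglucosylase/hydrolase (XTH) family of Arabidopsis thaliana and were listed by locus, and 8 of the 10 were found by locus code or symbol among 23932 features with deposited values: XTH4, XTH5, XTH9, XTH16, XTH27, XTH28, XTH31 and XTH33. XTH15 (AT4G14130) and XTH24 (AT4G30270) are not analysed here. RNA had been sequenced from 4 samples of germinating seedlings, 1 per genotype and treatment. The genotypes were the Col-0 wild type and seedlings that overexpress ZFP3, a C2H2 zinc finger protein (ZFP3ox). All 4 samples were grown on 5 µM estradiol, without abscisic acid (ABA) and harvested at 36 h (control), or with 2.5 µM ABA and harvested at 84 h, when the radicles were at a like stage. ABA and the later harvest therefore cannot be told apart, and estradiol was present for wild type too. How many transgenic lines and how many seedlings or plates stood behind a sample is not stated in the labels.

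Xyloglucan is the main hemicellulose of the primary wall in Arabidopsis and coats cellulose microfibrils. XTH enzymes cut a xyloglucan chain and join the new end to another chain (endotransglucosylation) or to water (hydrolysis), and both reactions alter how the wall can extend. ABA is the hormone that holds back germination and seedling growth, which depend on wall extension in the radicle and hypocotyl.

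The 8 genes share the short stretch that carries the active site, which is shown here because it defines the family whatever the RNA level. Each line is 30 bases of coding sequence, 5′ to 3′, taken from RefSeq on the TAIR10.1 assembly, and capitals mark the codons of the catalytic glutamate, the aspartate between and the second glutamate.
XTH4: catgacGAGataGACtttGAGttccttgga
XTH5: catgatGAGataGACtttGAGtttctaggg
XTH9: cacaacGAAttcGATtttGAGttcttaggg
XTH16: cacgacGAGataGACtttGAGtttcttggt
XTH27: catgatGAGataGATtttGAGtttcttggt
XTH28: catgacGAGattGATtttGAGtttttgggg
XTH31: cacgatGAGgtcGATatcGAGtttctaggg
XTH33: cacgacGAGataGACataGAAttgttgggt
The stretch was located by a pattern that required both glutamates and allowed aspartate or asparagine between, so the glutamates were fixed by the search. All 8 have aspartate there, while XTH31 and XTH33 differ from the rest in the codon just before the second glutamate. Outside this stretch the genes differ more. Coding sequences of XTH27 and XTH28 were 77.7% identical and those of XTH4 and XTH5 were 72.5% identical, the 2 closest pairs among the genes with values. The authors let a read match up to 10 places with at most 2 mismatches, so reads of close relatives could be shared. No 50-base window of any of the 8 transcripts matched another of the 33 XTH transcripts within 2 mismatches, so a full-length read of one would not match another within that limit.

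The deposited table gives RPKM (reads per kilobase of a gene's exons, scaled to the size of the library) in 2 columns per sample, called column set 1 and column set 2 here. What distinguishes the sets is not stated, so both columns of a sample count as 1 replicate and each group has n = 1. Low values of set 1 moved in steps that put the depth at about 4.08 and 3.18 Mreads (M, mega) in wild type without and with ABA, and 2.99 and 2.63 in ZFP3ox, while the depth of set 2 is unknown. The step rests on 63.1% to 67.6% of low values within 0.1 of a whole number, so read numbers are estimates. At that depth the 8 genes had about 36.0 to 1369 reads per sample in set 1. ZFP3 (AT5G25160), the driven gene, had 8.66 RPKM in control and 15.7 with ABA in wild type, against 176 and 85.4 in ZFP3ox, for set 1, and 1.14, 1.01, 40.8 and 44.8 in the same order in set 2, which matches the genotype labels.

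In wild-type control the order of RPKM levels in set 1 was XTH31, XTH9, XTH4, XTH16, XTH5, XTH27, XTH28 and XTH33, from 241 down to 14.9. With ABA the order in wild type became XTH5, XTH9, XTH16, XTH31, XTH27, XTH4, XTH28 and XTH33, from 121 down to 9.37. ZFP3ox control kept the wild-type control order except that XTH5 and XTH16, at 48.1 and 46.7 RPKM, changed places. In ZFP3ox ABA, XTH5 again led at 106 RPKM and XTH33 was again last at 16.3. Set 2 ordered the genes differently: XTH4 led in both controls, at 49.6 and 21.7 RPKM, and XTH5 was last in wild-type control at 3.13. The order therefore holds within a set only, and neighbours cannot be separated because no spread between samples was measured. The summed level of the 8 genes was lower with ABA in each genotype and set, at 668 against 350 RPKM in wild type and 505 against 292 in ZFP3ox in set 1, and 110 against 52.3 and 80.4 against 44.9 in set 2.

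**Figure D1:**
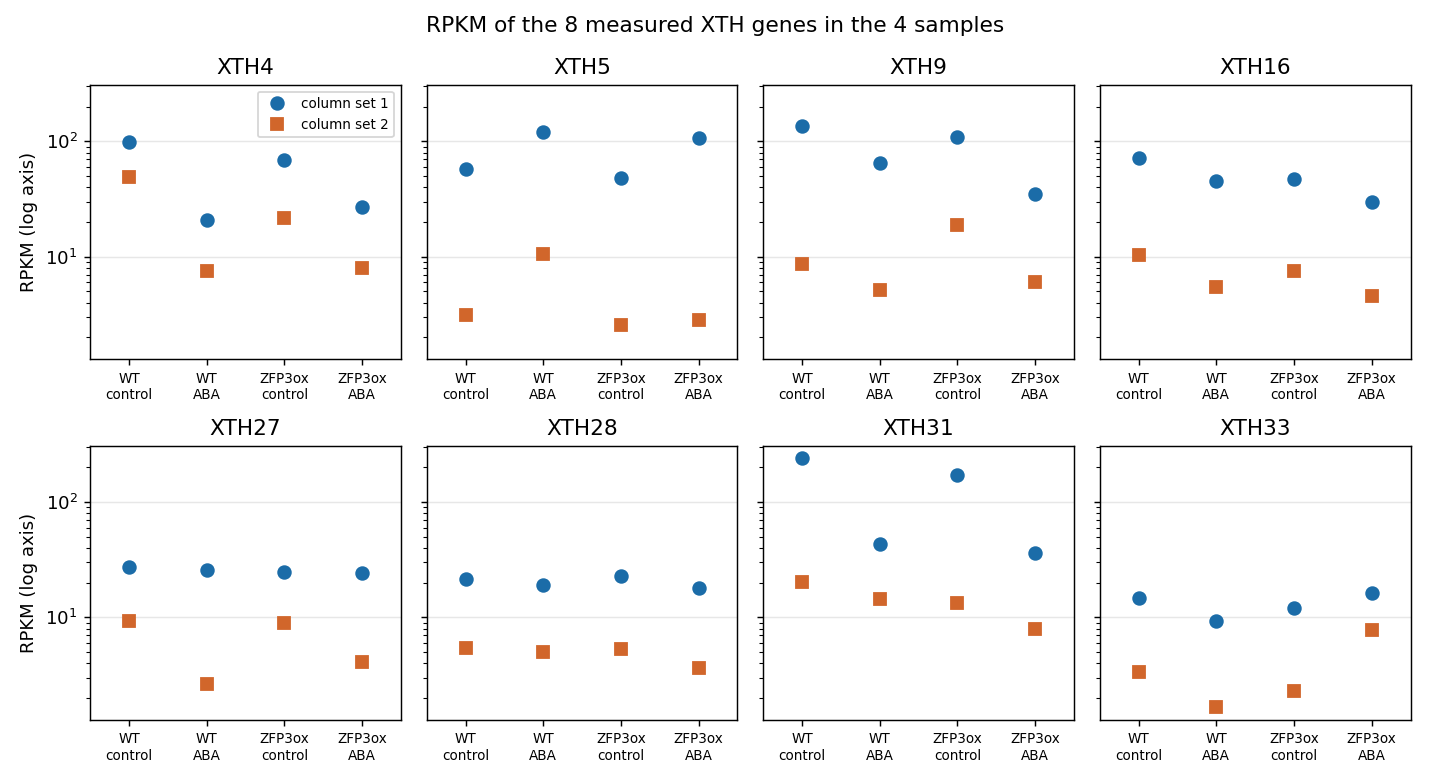
RPKM (log axis) of the 8 measured XTH genes in the 4 samples, with a circle for column set 1 and a square for column set 2 of the same sample. XTH4 is lower with ABA in both genotypes and sets, XTH5 is higher, and XTH33 is highest in ZFP3ox ABA.

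Changes are given below as log2 ratios of RPKM + 1, set 1 first and set 2 second, and a gene is counted past the size rule when the mean of both is at least 2-fold. Ratios of genes near 1 RPKM are understated on this scale. With 1 sample per group a single comparison cannot be checked against replicates and gets no p-value. Only effects averaged over the other factor were tested, with limma on an additive model of the 4 samples, against its 1 residual degree of freedom and a variance prior worth 6.70 degrees of freedom, estimated from 22646 genes. That residual is the departure from additivity, so a gene whose response differs between the genotypes is harder to call. In most draws of simulated data the share of false calls exceeded the nominal 5% level, so calls near the threshold of 0.05 are weak.

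XTH4 and XTH5, near relatives in sequence, lay on opposite sides under ABA. XTH4 (AT2G06850, chromosome 2, 2763449 to 2765743, plus strand, TAIR10.1) takes part in wall formation of growing tissues and of wood cells. It had 98.2 RPKM in control and 20.6 with ABA in wild type, against 69.1 and 26.9 in ZFP3ox, for set 1, and 49.6, 7.55, 21.7 and 7.96 in set 2. Both ABA samples lay below both control samples in each set. The log2 ratio for ABA was -2.20 and -2.56 for wild type, 5.21-fold lower in the mean, and -1.33 and -1.34 for ZFP3ox, 2.52-fold lower. Averaged over genotypes XTH4 fell by 1.86 on the log2 scale (SE 0.298, limma adjusted p = 0.0474). The call was lost with either set alone (adjusted p = 0.0628 and 0.194), with an intensity-dependent variance prior (0.0572), with a minimum of 5 RPKM (0.0587) and with a pseudocount of 5 (0.0904). In the authors' deposited table of genes lower with ABA, XTH4 carried a signed fold change of -5.52 in wild type and -2.65 in ZFP3ox.

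XTH5 (AT5G13870, chromosome 5, 4474922 to 4477090, minus strand) was the only one of the 8 that was higher with ABA in both sets of both genotypes. It had 57.6 RPKM in control and 121 with ABA in wild type, against 48.1 and 106 in ZFP3ox, for set 1, and 3.13, 10.5, 2.53 and 2.82 in set 2. The ABA samples lay above the controls in set 1, whereas in set 2 ZFP3ox ABA lay just below wild-type control. The log2 ratio for ABA was 1.06 and 1.48 for wild type, 2.41-fold higher in the mean, and 1.13 and 0.11 for ZFP3ox. The averaged effect of 0.94 (SE 0.259) did not pass the test (limma adjusted p = 0.144). In wild type the ratio dropped just under 2-fold (0.97) with a pseudocount of 5. The authors' deposited table of genes higher with ABA gave XTH5 a signed fold change of 2.73 in wild type and 1.66 in ZFP3ox.

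Since this pair differed in direction, the 250 bases before each gene's annotated start are shown, 5′ to 3′ on the gene's strand, from RefSeq on TAIR10.1 (chr2:2763199-2763448, plus strand, for XTH4 and chr5:4477091-4477340, minus strand, for XTH5).
XTH4: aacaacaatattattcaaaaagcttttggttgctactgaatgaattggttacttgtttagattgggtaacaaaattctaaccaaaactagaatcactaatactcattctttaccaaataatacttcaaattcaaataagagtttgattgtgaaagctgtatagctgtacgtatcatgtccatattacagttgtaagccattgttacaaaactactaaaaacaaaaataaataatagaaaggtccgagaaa
XTH5: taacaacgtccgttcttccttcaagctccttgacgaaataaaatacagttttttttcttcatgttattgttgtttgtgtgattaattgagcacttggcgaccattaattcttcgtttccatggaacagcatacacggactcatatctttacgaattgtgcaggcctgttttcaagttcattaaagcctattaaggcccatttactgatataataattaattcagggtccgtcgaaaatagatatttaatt
Neither window holds ACGTG, the core of the elements bound by bZIP factors of ABA signalling, on either strand, and none of the 8 genes' windows does. Of 27443 windows of the same length before protein-coding genes, 22.9% hold ACGTG and 6.49% hold CACGTG, which contains it. TATAAA on the gene's strand was found in 2 of the 8 windows, those of XTH16 and XTH27, against 32.9% of all 27443 windows. These matches describe the letters of the windows only.

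XTH31 (AT3G44990, chromosome 3, 16446935 to 16448844, minus strand) encodes an enzyme known mainly for xyloglucan hydrolysis and for a role in root growth under aluminium. It had the highest mean RPKM of the 8 genes over all columns, with 241 in control and 43.3 with ABA in wild type, against 172 and 36.1 in ZFP3ox, for set 1, and 20.1, 14.4, 13.4 and 7.96 in set 2. In set 1 the controls stood far above the ABA samples, while in set 2 wild-type ABA lay above ZFP3ox control. The log2 ratio for ABA was -2.45 and -0.46 for wild type and -2.22 and -0.68 for ZFP3ox, so the change was far larger in set 1. Both genotypes gave a mean ratio of -1.45, or 2.74-fold lower. Averaged over genotypes XTH31 fell by 1.45 on the log2 scale (SE 0.231, limma adjusted p = 0.0463). The call was lost with set 2 alone (adjusted p = 0.809), with the 8 columns taken as libraries (0.0958), with an intensity-dependent prior (0.0781), with a minimum of 5 RPKM (0.0587), and with a pseudocount of 0.1 (0.0531) or 5 (0.0776).

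XTH9 (AT4G03210, chromosome 4, 1415617 to 1417444, plus strand) is expressed in shoot apices and is known for a part in internode elongation and wood cell walls. Its RPKM was 137 in control and 65.0 with ABA in wild type, against 109 and 35.1 in ZFP3ox, for set 1, and 8.59, 5.16, 18.6 and 6.05 in set 2. ABA samples were below control samples in each set, and the highest set 2 value was that of ZFP3ox control. The log2 ratio for ABA was -1.06 and -0.64 for wild type, short of 2-fold in the mean (-0.85), and -1.61 and -1.48 for ZFP3ox, 2.91-fold lower. Its averaged effect of -1.20 (SE 0.263) did not pass the test (limma adjusted p = 0.0998), but passed it after median-of-ratios scaling (0.0135).

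XTH16 (AT3G23730, chromosome 3, 8550037 to 8551403, plus strand) gave similar ABA ratios in both genotypes and sets. Its RPKM was 71.1 in control and 45.7 with ABA in wild type, against 46.7 and 30.0 in ZFP3ox, for set 1, and 10.3, 5.43, 7.58 and 4.54 in set 2. Each ABA sample was below the control of its genotype, with log2 ratios of -0.63 and -0.81 for wild type and -0.62 and -0.63 for ZFP3ox, none past 2-fold. ZFP3ox was also below wild type, by log2 ratios of -0.60 and -0.40 without ABA and -0.59 and -0.21 with it. Neither averaged effect passed the test (limma adjusted p = 0.204 for ABA and 0.708 for genotype).

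Of the pair XTH27 and XTH28, XTH27 is known for tracheary elements of leaf veins and XTH28 for growth of stamen filaments. In set 1 this pair had lower control levels and smaller ABA ratios than the genes above. XTH27 (AT2G01850, chromosome 2, 385171 to 387478, plus strand) had 27.4 RPKM in control and 26.0 with ABA in wild type, against 25.02 and 24.1 in ZFP3ox, for set 1, and 9.30, 2.67, 8.95 and 4.13 in set 2. The sets disagreed in size, with log2 ratios for ABA of -0.07 and -1.49 for wild type and -0.05 and -0.96 for ZFP3ox. XTH28 (AT1G14720, chromosome 1, 5066525 to 5068677, minus strand) had 21.4, 19.0, 23.0 and 18.0 RPKM in set 1 and 5.47, 4.97, 5.27 and 3.63 in set 2, in the same sample order. Its log2 ratios for ABA were -0.16 and -0.12 for wild type and -0.33 and -0.44 for ZFP3ox. The 4 sample means of XTH28 had the narrowest range of the 8 genes, 0.39 on the log2 scale. Neither gene passed the test for ABA (limma adjusted p = 0.219 for XTH27 and 0.542 for XTH28).

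XTH33 (AT1G10550, chromosome 1, 3479066 to 3481041, minus strand), reported at the plasma membrane, was the only member on opposite sides of ABA in the genotypes. It had 14.9 RPKM in control and 9.37 with ABA in wild type, against 12.2 and 16.3 in ZFP3ox, for set 1, and 3.34, 1.66, 2.32 and 7.76 in set 2. ZFP3ox ABA was the highest and wild-type ABA the lowest sample in each set. The log2 ratio for ABA was -0.61 and -0.71 for wild type and 0.40 and 1.40 for ZFP3ox, which differ by 1.56 in the mean; that difference was not tested. Set 1 values correspond to about 73.3, 36.0, 43.9 and 51.9 reads, the fewest of the 8 genes. The averaged ABA effect did not pass the test (limma adjusted p = 0.871).

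**Figure D2:**
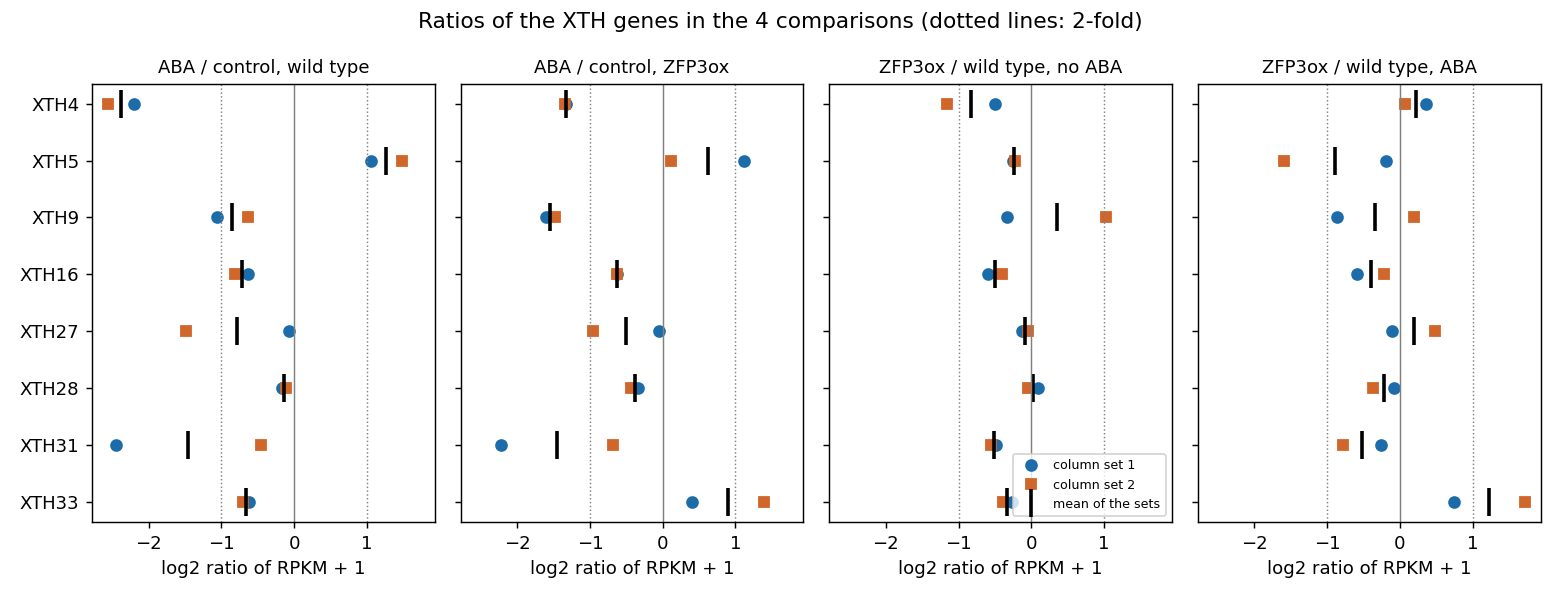
Log2 ratios of RPKM + 1 of the 8 XTH genes in the 4 comparisons, with a circle for column set 1, a square for column set 2, a bar for their mean and dotted lines at 2-fold. XTH31 and XTH27 show wide gaps between the sets for ABA in wild type, while XTH28, XTH33 and XTH16 show the narrowest ones.

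Counted together, 2 of the 8 genes were past 2-fold lower with ABA in wild type (XTH4 and XTH31), where 2.86% of all 22646 genes were, and 1 was past 2-fold higher (XTH5), against 4.65% of all genes. In ZFP3ox 3 of 8 were past 2-fold lower (XTH4, XTH9 and XTH31), against 2.23%, and 0 past 2-fold higher, against 4.55%. Members and gene lists were chosen with earlier results of these data known. The 8 genes also had a higher median RPKM than all genes kept in every column, and the shares were not matched for level. Shares of all genes, here and below, are therefore a description and no test of enrichment. Without regard to size, 7 of 8 were lower in both sets in wild type, against 18.2% of all genes. In ZFP3ox 6 of 8 were, against 17.0%. Higher in both sets were 1 of 8 in wild type, against 34.8%, and 2 of 8 in ZFP3ox, against 45.3%. The same 6 genes (XTH4, XTH9, XTH16, XTH27, XTH28 and XTH31) were lower in both sets of both genotypes, against 7.33% of all genes. XTH5 was higher in all of these ratios, as were 19.6% of all genes, and XTH33 was lower in wild type and higher in ZFP3ox, as were 3.74%. The median log2 ratio of the 8 was -0.75 in wild type and -0.57 in ZFP3ox, while that of all genes was 0.15 and 0.21. Relative to all genes the 8 were therefore lower by a median of -0.90 and -0.78, and by -0.91 and -0.80 after median-of-ratios scaling, which sets the median of all genes near 0. That scaling changed the split of all genes in wild type from 1054 higher and 647 lower to 719 higher and 930 lower, and in ZFP3ox from 1031 and 506 to 554 and 915. By limma, 2 of 8 genes fell with ABA averaged over genotypes, against 0.362% of all genes, and 0 of 8 rose, against 0.287%. At an unadjusted p under 0.05 were 6 of 8, against 19.1% of all genes. After median-of-ratios scaling 3 of 8 fell, XTH9 being the third, against 2.68% of all genes, and 0 of 8 rose, against 0.874%, with 198 genes higher and 608 lower in place of 65 and 82.

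**Figure D3:**
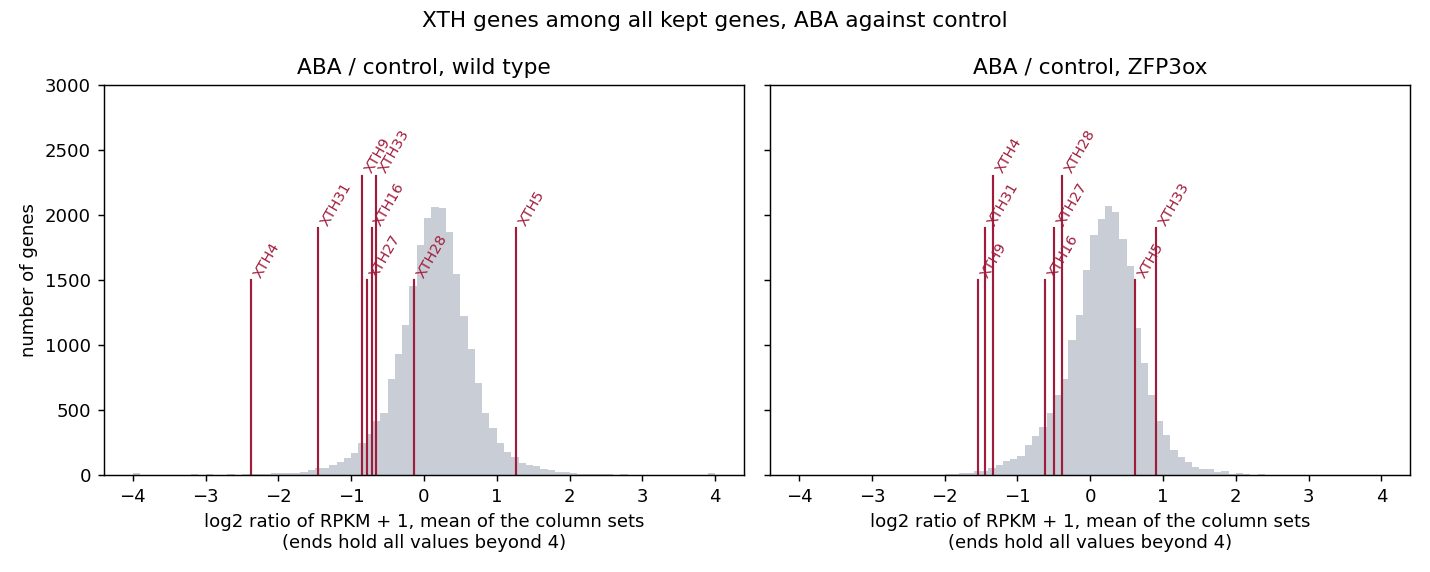
Histograms of log2 ratios of RPKM + 1 (mean of both column sets) for ABA against control over all 22646 genes kept, in wild type and ZFP3ox, with the 8 XTH genes as red lines whose heights differ only to separate the names. In wild type 7 lines lie below 0 and XTH5 above it, and in ZFP3ox XTH33 lies above 0 as well.

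Between the genotypes, 1 of the 8 genes passed the size rule, and only with ABA. Without ABA, 0 of 8 passed the 2-fold rule, which 0.954% of all genes did upward and 1.58% downward. Lower in ZFP3ox in both sets were 6 genes (XTH4, XTH5, XTH16, XTH27, XTH31 and XTH33), against 20.5% of all genes. Higher in both were 0 of 8, against 21.0%. All genes together had a median of 0.21 in set 1 and -0.20 in set 2, so set 2 values below 0 were common. The feature AT3G43990 made up 18.1% of summed set 2 RPKM in wild-type control and 28.7% in ZFP3ox control. Its part in these ratios was not tested. In set 2 XTH27 (-0.05) lay above that all-gene median and XTH5 (-0.23) just below it. XTH4, XTH16, XTH31 and XTH33 lay further below it. The largest mean ratio was that of XTH4, at -0.50 and -1.16, with XTH31 next at -0.48 and -0.55. XTH9 pointed both ways, at -0.33 and 1.03. With ABA, 1 of 8 passed the rule: XTH33, at 0.74 and 1.72, 2.35-fold higher in ZFP3ox, where 2.7% of all genes were past it upward and 2.03% downward. That count was 0 with set 1 alone. Lower in both sets with ABA were 4 genes (XTH5, XTH16, XTH28 and XTH31), against 22.3% of all genes, and XTH4 and XTH33 were higher in both, as were 31.3%. Among them XTH5 had log2 ratios of -0.19 and -1.59 and XTH31 -0.26 and -0.78. XTH4, lower in ZFP3ox without ABA, had 0.37 and 0.07 with ABA. Averaged over treatments, 0 of 8 genes passed limma for genotype (lowest adjusted p = 0.695), 0 of 8 had an unadjusted p under 0.05, against 7.29% of all genes, and over all genes 1 rose and 1 fell, 0.00442% each. The ABA and genotype comparisons share samples, so their values are set side by side here and not correlated.

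Of the other 23 XTH genes listed, 20 had values. Under ABA in wild type 8 of the 20 were past 2-fold lower, against 2.86% of all genes, and 0 higher, and in ZFP3ox 1 was lower, against 2.23%, and 0 higher. Their median ratio was -0.70 in wild type and -0.02 in ZFP3ox. The 8 lower genes were XTH7, XTH8, XTH12, XTH14, XTH17, XTH19, XTH26 and XTH32. XTH14 and XTH26, both known from root hairs, went from 108 to 12.1 and from 22.7 to 6.85 RPKM with ABA in wild type in set 1, and from 6.39 to 1.10 and from 2.63 to 1.47 in set 2. XTH14 was also the 1 gene past the rule in ZFP3ox, at -2.03 and -0.10. XTH17 and XTH19, genes of growing roots, had wild-type ratios of -1.74 and -2.72 and of -2.17 and -0.66. The set 2 ratio of XTH17 rests on a low level, 7.46 RPKM in control and 0.28 with ABA. XTH32, in the same small branch of the family as XTH31, had -0.94 and -2.78 for wild type and -0.22 and -0.17 for ZFP3ox. The rest had mean wild-type ratios of -2.02 (XTH7), -2.22 (XTH12) and -1.24 (XTH8).

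Between genotypes, 6 of the 20 were past 2-fold lower in ZFP3ox without ABA, against 1.58% of all genes, and 0 higher, against 0.954%. These were XTH12, XTH14, XTH17, XTH19, XTH26 and XTH32, all among the genes lower with ABA in wild type. Wild-type control was the highest sample of each of them in both sets. Both comparisons use that 1 sample, so they are not separate observations. With ABA 1 was higher, XTH7, at 2.34 and 2.01, against 2.7%. By limma 0 of 20 passed for ABA (lowest adjusted p = 0.0729, XTH14), with 7 of 20 at an unadjusted p under 0.05, where 19.1% of all genes were, and 0 of 20 for genotype, with 6 of 20, where 7.29% were. Unlike the 8 genes above, some of these share sequence. Within 2 mismatches 27.6% of the 50-base windows of XTH17 matched another XTH transcript, as did 11.3% of those of XTH19 and 6.56% of those of XTH12, so their single values are uncertain. The authors' deposited table of genes lower with ABA listed XTH4, XTH7, XTH8, XTH12, XTH14, XTH17 and XTH32. Their table of genes lower in ZFP3ox listed XTH12, XTH14, XTH17 and XTH19.

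**Figure D4:**
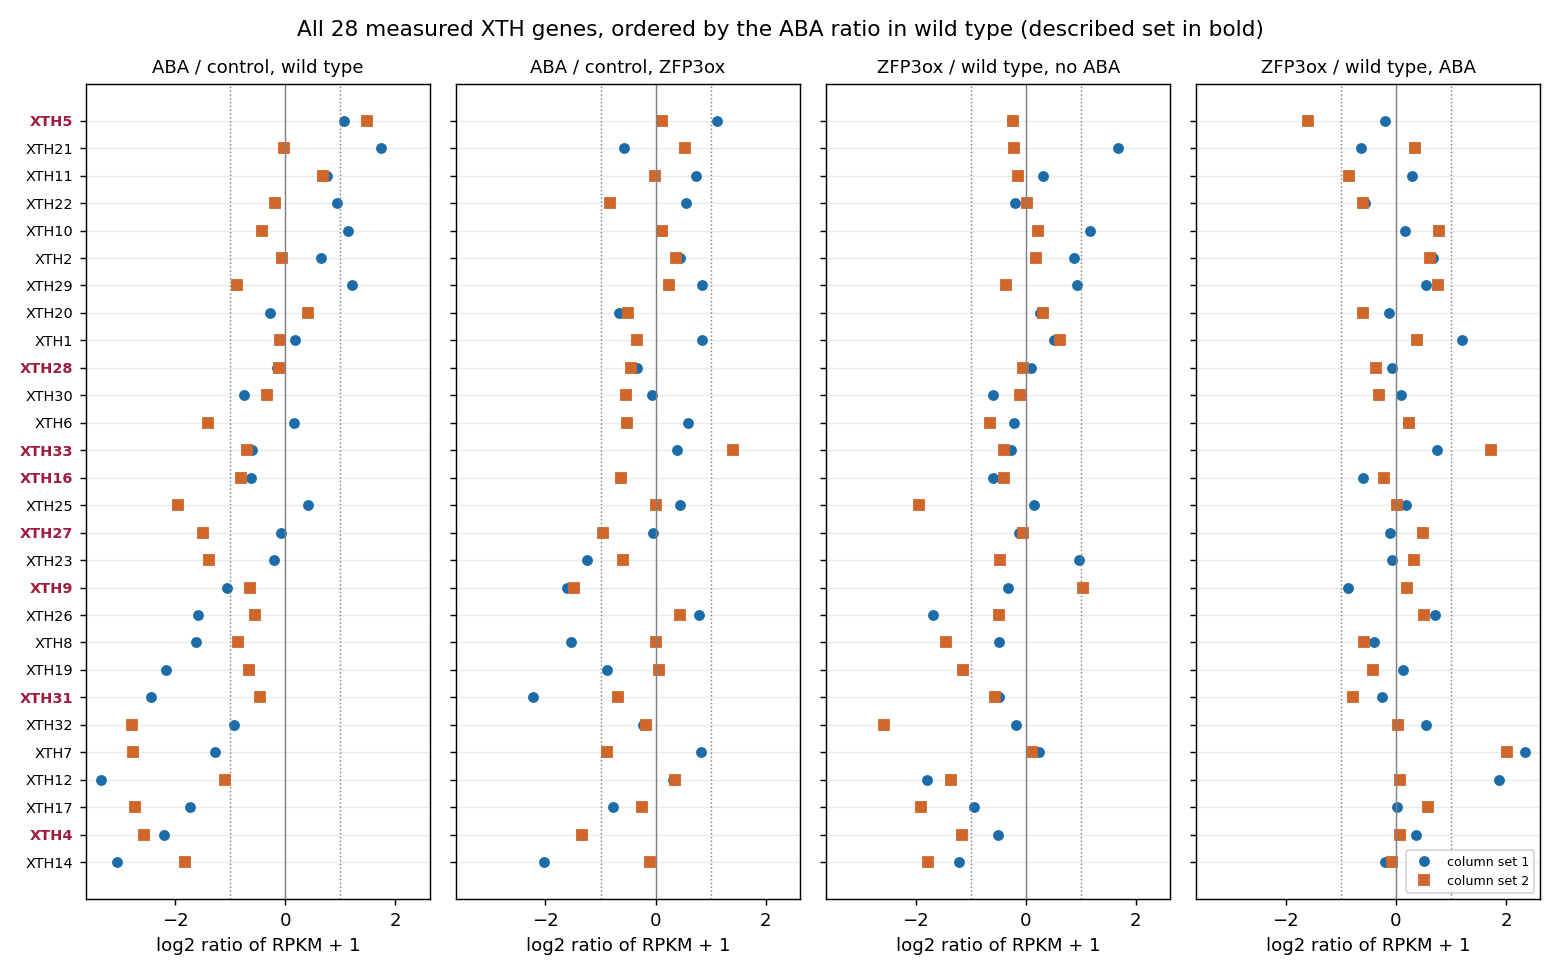
Log2 ratios of RPKM + 1 of all 28 measured XTH genes in the 4 comparisons, ordered by the mean ABA ratio in wild type, with a circle for column set 1, a square for column set 2, dotted lines at 2-fold and the 8 genes described here in bold. XTH14 and XTH4 stand at the lower end and XTH5 at the upper end in wild type, and the ABA ratios are drawn closer to 0 in ZFP3ox for most of the lower genes.

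Genes that make or trim xyloglucan were counted by the same rule. Of 13 synthesis genes with values, 1 was past 2-fold lower with ABA in wild type, against 2.86% of all genes: CSLC4, a glucan backbone synthase, at -1.45 and -0.64. In ZFP3ox XXT2, a xylosyltransferase, was lower with ABA at -1.26 and -1.16, and XLT2, a galactosyltransferase, was higher at 0.40 and 1.88, which makes 1 of 13 each way against 2.23% lower and 4.55% higher over all genes. With ABA, ZFP3ox had more XLT2 (0.31 and 2.50, past 2-fold in set 2 only) and less CSLC5 (-0.66 and -1.42) than wild type. That is 1 of 13 each way, against 2.7% higher and 2.03% lower over all genes. Without ABA 0 of 13 passed the rule, against 0.954% higher and 1.58% lower. The list's median ABA ratio was 0.01 in wild type and -0.13 in ZFP3ox. Of 4 genes that trim xyloglucan, 0 passed the rule for ABA. The 1 that passed between genotypes was XYL1, an alpha-xylosidase, lower in ZFP3ox with ABA at -1.15 and -1.17, against 2.03% of all genes. Its RPKM was 113 in control and 75.8 with ABA in wild type, against 64.8 and 33.7 in ZFP3ox, for set 1, and 33.6, 26.6, 20.3 and 11.3 in set 2. Of 15 alpha-expansin genes, which encode wall-loosening proteins, under ABA 1 was past 2-fold higher and 2 were past it lower in wild type, and 1 each way in ZFP3ox, beside the same shares of all genes and 4.65% higher in wild type. By limma 0 of these 32 genes passed for ABA or for genotype, with 6 at an unadjusted p under 0.05 for ABA, close to the 19.1% of all genes, and 4 for genotype, beside 7.29%.

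The genes most like XTH31 over the 8 columns were AT3G09925, CAM2, AT2G20760, HSP17.4 and AT1G29470. Likeness was the smallest Euclidean distance between log2(RPKM + 1) values centred within each set, among 4449 genes with a 2-fold range of sample means, and the 5 distances were 0.64 to 0.76. For XTH4, which had the widest range of the 8, they were AT3G43720, AGP12 (an arabinogalactan protein gene), DOX1 (an alpha-dioxygenase gene), SBPASE (a Calvin cycle enzyme gene) and PIP1C (an aquaporin gene), at 0.53 to 0.62. AGP12, for example, had 80.5, 13.3, 63.2 and 29.4 RPKM in set 1 against the 98.2, 20.6, 69.1 and 26.9 of XTH4. The 8 columns come from 4 samples, so this is a description of these samples.

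Markers of other stages and tissues differed between the same samples. The summed level of 10 seed reserve and LEA genes was 166 RPKM in control and 3677 with ABA in wild type, against 158 and 1179 in ZFP3ox, for set 1, and 48.5, 564, 36.4 and 418 in set 2. With ABA in wild type 8 of these 10 were higher in both sets, against 34.8% of all genes, SESA1 was lower in both and CRB pointed both ways. In ZFP3ox 9 were higher in both, against 45.3%, and PAP85 pointed both ways. The summed level of 5 genes of green seedlings was 2785, 229, 3385 and 1462 in set 1, and 1276, 116, 1511 and 469 in set 2. For 3 genes of endosperm and seed coat the sums were 29.9, 82.9, 25.6 and 51.0 in set 1, and 8.31, 31.8, 7.17 and 18.4 in set 2. Of these 3, EPR1 was lower with ABA in wild type in set 2, at 3.27 in control and 2.03 with ABA. For 3 root hair genes the sums were 85.0, 30.1, 64.5 and 42.9 in set 1, and 13.9, 11.5, 13.5 and 14.8 in set 2. Among them COBL9 hardly differed with ABA in wild type, at 15.3 and 14.7 RPKM in set 1 and 4.12 and 4.14 in set 2. None of these genes was at 0 in any column. With ABA the summed seed list was thus higher and the summed green list lower in wild type than in ZFP3ox. By gene, 7 of the 10 seed genes were lower in ZFP3ox in both sets, against 22.3% of all genes. CRB was higher in both, while OLEO2 and SESA1 pointed both ways. OLEO2 made up 310 of the 418 RPKM of ZFP3ox ABA in set 2. Of the 5 green genes 4 were higher in ZFP3ox in both sets, against 31.3% of all genes, and RBCS1A pointed both ways. The part of these lists in the XTH values was not tested. In whole seedlings, fewer cells of a type and less RNA per cell cannot be told apart.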

How the data were processed

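Per the labels' protocols, total RNA was depleted of ribosomal RNA and sequenced as 50-base reads on a SOLiD 5500xl instrument. The authors made RPKM values per gene from strand-specific colour-space matches, per their deposited settings, with a program and genome build not given in the sources used here. The signed fold changes in the authors' deposited tables were treated as a score, since the rule behind the tables is not stated. Members and gene lists were chosen with earlier results of these data known. Features with at least 1 RPKM in both columns of at least 1 sample were kept, which left 22646 of 23932, and all 8 members passed. Values were log2(RPKM + 1), averaged over both columns. Averaged effects went through limma 3.58.1 (R 4.3.3) with Benjamini-Hochberg adjustment. The script was tested on simulated data with the spread per gene drawn from limma's fitted prior: large changes were recovered and few small ones, and in most draws more calls were false than the threshold allows. The p-values measure no spread between samples of 1 group. Named genes were every member, other XTH genes past 2-fold for ABA, xyloglucan synthesis and trimming genes past 2-fold in any comparison, expansins by count, ZFP3, and the 5 genes most like XTH31 and XTH4. Sequences, exon lengths and positions came from RefSeq on TAIR10.1, and of 271 features whose names carry a position 111 shared a start or end base with a TAIR10.1 gene. Sequences were read with Biopython 1.88. Depth is known only as an estimate, so no counting interval is given. Alternatives were other pseudocounts, filters, scalings, each column set alone, another averaging, limma-trend and the 8 columns as libraries.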

Additional observations from a re-analysis of the deposited data

Results flagged for a closer look

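Of the 28 XTH genes with values, 8 had ABA or genotype ratios that pointed opposite ways, in both column sets, depending on the other factor, and with 1 sample per group the differences were not tested. Lower with ABA in wild type and higher in ZFP3ox, as XTH33, XTH12 and XTH26 were, were 3.74% of all genes. For the other sign changes the share over all genes was not computed, so the count of 8 is no result about the family. XTH33 was lower with ABA in wild type and higher in ZFP3ox, and lower in ZFP3ox without ABA and higher with it. By arithmetic both contrasts give the same difference, 1.56 on the log2 scale for XTH33, so they are not separate observations. This holds for every gene here. XTH4 was lower in ZFP3ox without ABA and slightly higher with ABA, a difference of 1.05. Among the other XTH genes, both ABA and genotype ratios changed sign for XTH12, by 2.55, and for XTH26, by 1.70. Only the genotype ratio did so for XTH17, by 1.72, for XTH32, by 1.67, and for XTH6, by 0.66. XTH20 went the other way, higher in ZFP3ox without ABA and lower with it, a difference of -0.65. Low levels stand behind several of these values: in set 2 XTH12 had 0.74 to 3.48 RPKM, XTH26 1.47 to 2.63 and XTH17 0.28 to 7.46.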

How the results depend on the processing

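The filters cannot change a gene's own ratio, so they are left out of this count. Of 192 recomputed member ratios (32 ratios under 6 alternatives each), 172 kept their direction and side of the 2-fold rule, 5 dropped below it, 11 moved past it and 4 small ones changed sign. The number of genes called for the averaged ABA effect, 147 in the analysis reported, was 238 with the 8 columns as libraries, 6 with set 2 alone, 806 (198 higher, 608 lower) after median-of-ratios scaling, 95 with a minimum of 5 RPKM and 2 with a pseudocount of 5. For genotype it was 2, and became 1 with the 8 columns as libraries, with set 1 alone, with set 2 alone and with limma-trend, 8 after median-of-ratios scaling and 0 with a pseudocount of 5, where 1667 genes had an unadjusted limma p under 0.05. Members past 2-fold between ZFP3ox and wild type, both with ABA, numbered 1, against 0 with set 1 alone or a pseudocount of 5 and 2 with set 2 alone or a pseudocount of 0.1. Without ABA they numbered 0, against 2 with set 2 alone. Effects near 0 changed sign. The averaged ABA effect of XTH33, 0.12, became -0.11 with set 1 alone and -0.0485 after median-of-ratios scaling. The genotype effect became -0.11 for XTH27 (from 0.05), 0.0115 for XTH28 (from -0.10) and -0.60 for XTH9 (from 0.01) with set 1 alone. For XTH9 it was -0.0334 after scaling and -0.0502 with a pseudocount of 5. The cause was not tested. No paired analysis was possible because each group had 1 sample, and no replicate could be left out. No group has a second sample, and the depth of set 2 is unknown. The sets differ in size or sign for several ratios, among them those of XTH31, XTH27 and XTH5 under ABA and of XTH9 between genotypes.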
